A study of Homo sapiens with 24 samples.

Results

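The 41 genes described here encode proteins that carry secretory and membrane proteins into the endoplasmic reticulum (ER), fold them there, and remove those that fail to fold. They were taken by symbol from a list chosen with earlier results of these data known. All 41 were found among the 48162 genes in the deposited tables. By role, 18 are folding genes (chaperones, co-chaperones, disulfide isomerases and prolyl isomerases), 10 belong to ER-associated degradation and 13 to translocation and signal peptide removal.

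RNA was sequenced from 24 libraries, 3 for each of 8 groups, made from 2 cultured human pancreas lines under 4 treatments. hTERT-HPNE (HPNE below) is an immortalised pancreas line that carries a telomerase transgene, and HPDE-H6c7 (HPDE) is an immortalised pancreatic duct epithelial line. All cells grew in serum-free keratinocyte medium. For 24 h they received fresh medium without serum (untreated), residual medium left after vesicle isolation (the study's negative control), or extracellular vesicles of PANC-1 or PPCL-68 cells at 1e10 per well. The study describes both sources as pancreas cancer cells. Which cells' isolation the residual medium came from is not given in the sources used here. The design text calls the 3 libraries of a group biological triplicates. Each line is a single established line, so the spread between libraries covers cultures of that line and not donors.

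Proteins with a signal peptide enter the ER through the SEC61 channel, and signal peptidase cuts the signal peptide off. Inside, the chaperone BiP (HSPA5) and its J-domain partners, the lectin chaperones calnexin and calreticulin, and the protein disulfide isomerases help the chain to fold. Chains that stay unfolded are recognised, moved back to the cytosol and ubiquitinated by a membrane ligase complex built on SYVN1 and SEL1L, which is called ER-associated degradation. When unfolded protein builds up, the sensors ATF6, IRE1 (ERN1) and PERK (EIF2AK3) start the unfolded protein response, whose factors ATF6 and XBP1 are known to raise many of these genes. Pancreatic secretory cells are a textbook setting for this system.

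The libraries held between 29209142 and 46490312 reads assigned to genes. In HPNE, 1 library of each group lay apart from the other two (untreated 3, residual medium 3, PANC-1 vesicles 1 and PPCL-68 vesicles 1), at 2.05 to 3.31 times the distance between the close pair, against 1.08 to 1.24 in HPDE. HPNE results are therefore given with all 12 libraries and, where it matters, without those 4. The 4 were picked by their distances in these same data, which makes the spread left within groups small. P-values of the fit without them are therefore too small and are given as a description. The defining duct markers EPCAM, CDH1, KRT19, KRT7 and CLDN4 summed to at most 2.46 FPKM in HPNE and to 1145 to 2548 FPKM in HPDE, while VIM, CDH2, ZEB1, COL1A1 and FN1 summed to 7643 to 10891 FPKM in HPNE and 79 to 152 FPKM in HPDE. FPKM is the number of reads of a gene scaled by its length and by the library's reads in genes. Within HPDE the summed duct markers moved with treatment, at 2203 to 2548 FPKM in residual medium, 1834 to 2045 untreated, 1199 to 1401 with PANC-1 vesicles and 1145 to 1171 with PPCL-68 vesicles. KRT19 and KRT7 make up most of that sum: KRT19 averaged 955 FPKM untreated, 1048 in residual medium, 426 with PANC-1 and 326 with PPCL-68 vesicles, and KRT7 averaged 752, 1068, 631 and 599 FPKM. The other duct markers did not all follow. Against fresh medium EPCAM rose with both vesicle kinds (0.19 and 0.27 on the log2 scale, adjusted p = 0.00238 and 0.000132 by limma), CLDN4 rose with PPCL-68 vesicles (0.19, adjusted p = 0.039) and CDH1 passed with neither (-0.10 and -0.12). The mesenchymal sum of HPDE was 79 to 88.7 FPKM untreated, 103 to 119 in residual medium, 94 to 105 with PANC-1 and 132 to 152 with PPCL-68 vesicles, where FN1 rose by 1.01 against fresh medium. The part of these markers in the results below was not tested. Markers of blood and immune cells summed to at most 0.0812 FPKM and those of acinar and islet cells to at most 0.0427 FPKM. In bulk RNA, fewer cells of a kind and less RNA per cell cannot be told apart.

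The promoters of several of these genes carry the response elements of the unfolded protein response, and the matched sequences are shown here because they are known sites of ATF6 and XBP1. RefSeq promoter windows on GRCh38.p14, from 250 bases before to 50 after the transcription start, were found for 37 of the 41 genes. Both strands were searched for the ER stress response element (ERSE, CCAAT, any 9 bases, CCACG), for ERSE-II (ATTGG, any base, CCACG), for the UPRE core TGACGTGG and for the amino acid response letters TGATGNAAT. ERSE was found in 5 of the 37 (13.5%), against 0.0806% of 27305 promoters, and ERSE-II in 3 (8.11%) against 0.0549%. Because ATF6 and XBP1 are known to raise many of these genes, the higher shares are a description and not a test. The UPRE core was found in DNAJC10, HYOU1 and SEC62 (8.11% against 0.795%), overlapping an ERSE-II site in HYOU1, and the amino acid response letters in 0 of the 37 against 1.02% of all promoters. The ERSE and ERSE-II matches, read 5′ to 3′ on the strand that carries them, with the fixed letters in capitals, were as follows.

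HSPA5: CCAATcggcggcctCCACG
HSP90B1, distal: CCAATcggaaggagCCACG
HSP90B1, proximal: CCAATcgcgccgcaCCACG
CALR: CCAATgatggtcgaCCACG
CANX: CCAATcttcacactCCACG
CRELD2: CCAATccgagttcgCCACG
HYOU1, both sites: ATTGGaCCACG
SDF2L1: ATTGGtCCACG
HERPUD1: ATTGGgCCACG

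The promoters of 4 of these genes are given for the 250 bases before the start, in the direction of the gene and with matched letters in capitals, because the genes behind them behaved differently. HSPA5, HYOU1 and HERPUD1 were among the most raised members in HPDE with PPCL-68 vesicles, and CALR was lower there. On GRCh38.p14 they lie at chr9:125241344-125241593, minus strand (HSPA5), chr11:119057206-119057455, minus strand (HYOU1), chr16:56931892-56932141, plus strand (HERPUD1) and chr19:12938359-12938608, plus strand (CALR).

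HSPA5: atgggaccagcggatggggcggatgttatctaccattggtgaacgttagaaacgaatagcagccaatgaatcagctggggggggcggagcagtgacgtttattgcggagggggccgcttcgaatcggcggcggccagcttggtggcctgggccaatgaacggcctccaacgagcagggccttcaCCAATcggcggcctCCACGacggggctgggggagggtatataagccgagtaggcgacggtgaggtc
HYOU1: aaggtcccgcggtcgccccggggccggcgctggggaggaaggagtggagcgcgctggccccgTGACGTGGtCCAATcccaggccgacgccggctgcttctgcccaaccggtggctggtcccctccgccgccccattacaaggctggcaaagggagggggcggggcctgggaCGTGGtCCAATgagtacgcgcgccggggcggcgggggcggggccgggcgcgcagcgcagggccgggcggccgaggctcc
HERPUD1: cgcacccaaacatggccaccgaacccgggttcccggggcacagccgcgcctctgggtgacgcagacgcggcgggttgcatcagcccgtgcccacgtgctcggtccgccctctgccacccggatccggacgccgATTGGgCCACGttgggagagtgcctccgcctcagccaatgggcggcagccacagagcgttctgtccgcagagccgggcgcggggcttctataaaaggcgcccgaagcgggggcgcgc
CALR: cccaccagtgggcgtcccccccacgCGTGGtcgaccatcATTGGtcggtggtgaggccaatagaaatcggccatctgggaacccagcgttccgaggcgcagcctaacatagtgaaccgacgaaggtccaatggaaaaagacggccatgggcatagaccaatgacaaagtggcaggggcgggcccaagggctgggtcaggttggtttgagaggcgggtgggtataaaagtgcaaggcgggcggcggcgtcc

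A match is a description of letters in a window. The ERSE of HSPA5 ran from 66 to 48 bases before the start and that of CALR from 225 to 207, while the ERSE-II of HERPUD1 ran from 117 to 107 and those of HYOU1 from 185 to 175 and from 79 to 69.

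In untreated cells the 5 most abundant of the 41 genes were folding genes in both lines. CALR led in both lines, at 321, 317 and 600 FPKM in HPNE and 492, 508 and 508 in HPDE. In HPDE it was followed by HSP90B1, HSPA5 and CANX, with group means of 469, 346 and 211 FPKM, and in HPNE by P4HB, CANX and HSP90B1 with 240, 233 and 208 FPKM. The HPNE order among these is not firm, because untreated library 3 was high for most chaperones (HSPA5 read 172, 163 and 231 FPKM). SEC61A1, the channel itself, and SSR3, a subunit of the translocon-associated TRAP complex, were the most abundant translocation genes, with means of 140 and 107 FPKM in HPNE and 95.7 and 185 FPKM in HPDE. DERL3, a derlin that is expressed mainly in professional secretory cells, was the lowest of all, at 0.256, 0.317 and 0.186 FPKM in HPNE and 1.21, 1.32 and 1.26 in HPDE. It was left out of the tests because its mean over the 12 libraries of a line, 0.160 FPKM in HPNE and 0.968 in HPDE, was under the filter of 1 FPKM. The other 40 genes passed the filter in each line.

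Each line's 12 libraries entered 1 limma fit on log2(FPKM + 1), and p-values were Benjamini-Hochberg adjusted over all genes tested (11503 in HPNE, 12223 in HPDE) with a threshold of 0.05. Differences below are log2 differences on that scale with their standard error, and "rose" and "fell" are used for adjusted p under 0.05. Residual medium is the control unless another is named.

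In HPDE, PPCL-68 vesicles went with a broad increase of these genes. With PANC-1 vesicles calls went both ways, at shares near those of all genes. With PPCL-68 vesicles 31 of the 40 tested genes rose and 3 fell, with a median difference of 0.46, beside 31.3% higher and 36.4% lower among all genes tested and a median of -0.03. All 3 roles took part, with 14 of 18 folding, 8 of 9 tested degradation and 9 of 13 translocation genes higher. With PANC-1 vesicles 8 rose and 16 fell (background 28.2% higher, 35.1% lower) and the median was -0.06, close to the -0.04 of all genes. There the roles differed in their counts. Of 13 translocation genes 9 fell (69.2%) and 0 rose, and of 9 tested degradation genes 3 rose (33.3%) and 1 fell (11.1%). The folding genes stood at 5 higher (27.8%) and 6 lower (33.3%) of 18, near the background. With size factors 6 degradation genes rose and with limma-voom 5, with 1 fall in each. Over all genes 31.5% were higher and 31% lower with size factors, and 31.9% and 31.5% with limma-voom. For rises of translocation genes, 0 had an unadjusted p under 0.05 and 0 passed by limma-voom. Residual medium itself differed little from fresh medium in HPDE, with 3 genes higher and 2 lower (background 9.93% and 10.1%).

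In HPNE many of these genes already differed between the control media. Between residual and fresh medium 22 of 40 were higher and 1 lower, with a median of 0.31, beside 18.7% higher and 25.2% lower over all genes and a median of -0.05. Against residual medium, PANC-1 vesicles raised 3 and lowered 10 (background 13.9% and 10.3%, median of the 40 -0.21), and PPCL-68 vesicles raised 7 and lowered 8 (background 20.3% and 19.7%, median -0.11). Without the 4 libraries that lay apart, the counts were 28 higher and 3 lower for residual medium, 4 and 25 for PANC-1 vesicles and 8 and 23 for PPCL-68 vesicles. In that fit of 8 libraries the backgrounds were 35.4% and 36.2%, 28.2% and 30.8%, and 28.2% and 37.3%. The 3 comparisons share the residual medium libraries, of which library 3 stood apart: it read 14.8 FPKM for SDF2L1 against 34.4 and 35.4. Leaving out that library alone gave 16 genes lower for each vesicle kind, and leaving out residual medium library 1 or 2 gave 3 or 4 genes lower with PANC-1 vesicles and 2 with PPCL-68 vesicles in either case. Residual medium had 24 genes higher than fresh medium without its library 3 or without untreated library 3, and 11 to 13 without one of the others. Of the 23 calls between residual and fresh medium, 12 held under every alternative. The libraries numbered 3 did not show the difference in the summed folding genes, at 2241 FPKM untreated and 2210 in residual medium. The calls that held under every alternative tried were SEC61G and SPCS3 with PANC-1 vesicles, and SEC63, HSPA5, HERPUD1, SEL1L, DNAJB9, SEC61G and P4HB with PPCL-68 vesicles.

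Markers of the HPNE line moved in the same comparisons. TERT, the telomerase gene that this line carries as a transgene, read 114, 124 and 200 FPKM untreated, 443, 424 and 202 in residual medium, 119, 150 and 159 with PANC-1 vesicles and 130, 179 and 171 with PPCL-68 vesicles. Residual medium libraries 1 and 2 were the highest and library 3 lay apart from them, as for SDF2L1. TERT was higher in residual than in fresh medium by 1.24 (adjusted p = 0.00751), and against residual medium it fell by 1.24 (adjusted p = 0.0129) with PANC-1 and fell by 1.08 (adjusted p = 0.0145) with PPCL-68 vesicles. Of the 5 mesenchymal markers, CDH2 was higher in residual than in fresh medium (1.54, adjusted p = 0.00319), COL1A1 was lower (-0.82, adjusted p = 0.0201), and VIM (0.57), FN1 (0.03) and ZEB1 (-0.23) did not pass. With PPCL-68 vesicles against residual medium VIM fell by 1.30 (adjusted p = 0.00225) and the other 4 did not pass, and with PANC-1 vesicles the 5 differences ran from -0.71 (VIM, adjusted p = 0.0575) to 0.24 (COL1A1, adjusted p = 0.498). Their summed level overlapped between the groups, at 10276 to 10501 FPKM untreated, 8212 to 10600 in residual medium, 9315 to 10891 with PANC-1 and 7643 to 9809 with PPCL-68 vesicles. The part of these markers in the HPNE results was not tested.

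**Figure D1:**
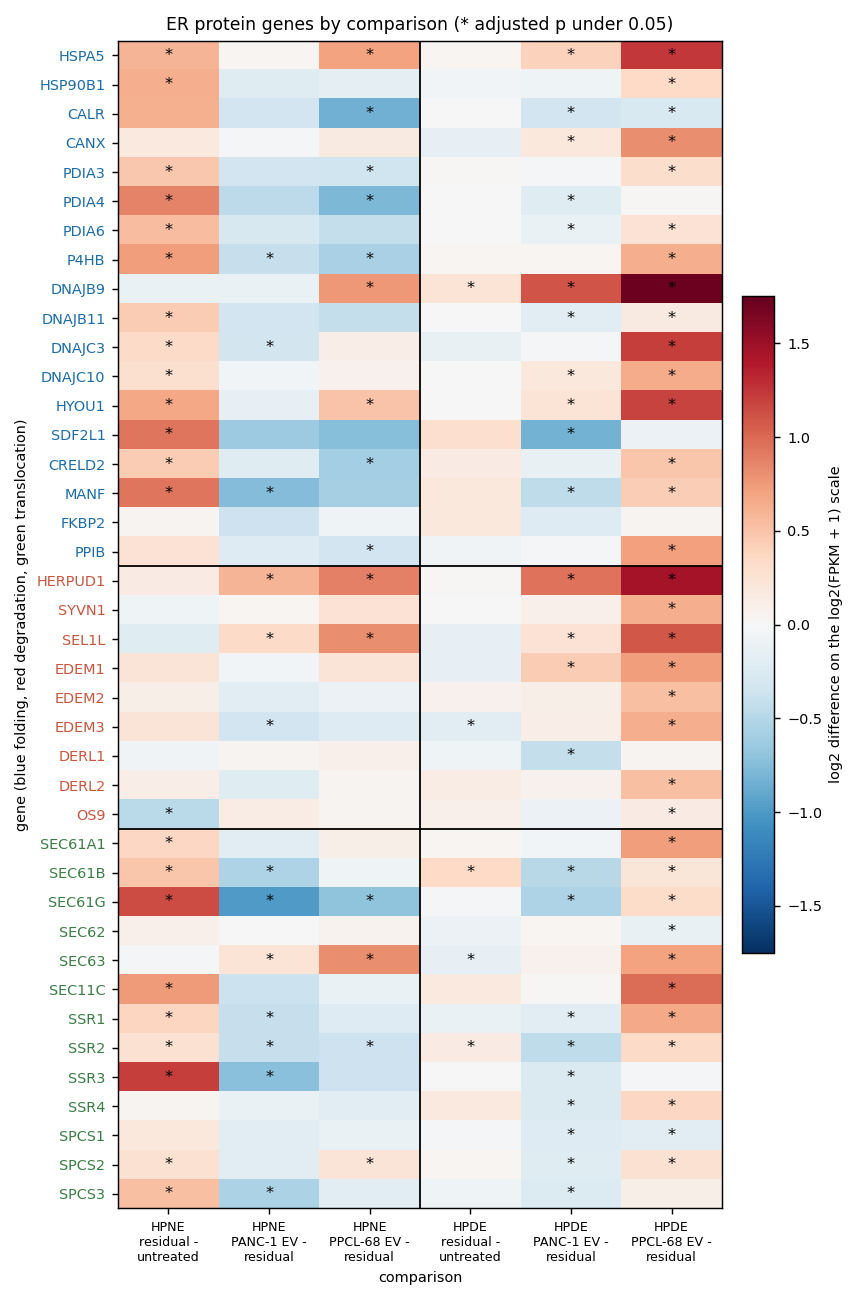
Log2 differences of the 40 tested genes (rows, coloured by role) in 6 comparisons (columns), on the log2(FPKM + 1) scale with red for higher and blue for lower; an asterisk marks an adjusted p under 0.05. The HPDE column for PPCL-68 vesicles is red in 31 starred rows, while the HPNE column for residual against fresh medium is red and starred in 22 rows, 13 of folding and 9 of translocation genes, and blue and starred in 1 degradation row, OS9.

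HSPA5, the central Hsp70-family chaperone of the ER, followed the vesicles in HPDE. Its HPDE libraries read 335, 361 and 342 FPKM untreated, 343, 368 and 358 in residual medium, 460, 491 and 459 with PANC-1 vesicles and 903, 837 and 799 with PPCL-68 vesicles. Both vesicle groups lay above every control library, and the rise was 0.40 ± 0.05 (adjusted p = 1.99e-05) with PANC-1 and 1.24 ± 0.05 (adjusted p = 1.13e-10) with PPCL-68 vesicles. In HPNE it read 172, 163 and 231 FPKM untreated, 313, 295 and 241 in residual medium, 236, 316 and 323 with PANC-1 vesicles and 481, 450 and 444 with PPCL-68 vesicles. Only the PPCL-68 group stood clear of residual medium there, by 0.70 ± 0.16 (adjusted p = 0.00655), whereas the PANC-1 difference was 0.04 ± 0.16 (adjusted p = 0.883) and residual medium was itself 0.59 ± 0.16 (adjusted p = 0.0142) above fresh medium.

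HYOU1, an Hsp110-like nucleotide exchange factor of BiP, had the same order of groups in HPDE. HYOU1 in HPDE measured 45.5, 46.6 and 46.9 FPKM untreated, 45.5, 47.8 and 45.8 in residual medium, 54.6, 55.2 and 54.9 with PANC-1 vesicles and 108, 110 and 102 with PPCL-68 vesicles. The PPCL-68 libraries exceeded all others, with a rise of 1.18 ± 0.04 (adjusted p = 8.52e-12), and the PANC-1 libraries lay between, at 0.24 ± 0.04 (adjusted p = 0.000103). HYOU1 in HPNE measured 22.4, 22.8 and 31.8 FPKM untreated, 46.3, 44.1 and 34 in residual medium, 28.2, 40.8 and 44.5 with PANC-1 vesicles and 56.3, 60.1 and 60 with PPCL-68 vesicles. It rose by 0.50 ± 0.18 (adjusted p = 0.0446) with PPCL-68 vesicles and by 0.68 ± 0.18 (adjusted p = 0.0123) with residual medium, and the PANC-1 difference was -0.14 ± 0.18 (adjusted p = 0.583).

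The J-domain co-chaperones, which hand clients to BiP, held the largest rise of all. DNAJB9, an inducible partner of BiP, read 4.21, 4.31 and 3.68 FPKM untreated, 4.93, 5.06 and 4.93 in residual medium, 12.4, 11.4 and 11.6 with PANC-1 vesicles and 19, 18.8 and 17.9 with PPCL-68 vesicles in HPDE. The vesicle groups did not overlap with the controls or with each other, and the rises of 1.10 ± 0.06 (adjusted p = 1.07e-09) and 1.71 ± 0.06 (adjusted p = 9.33e-12) were the largest among the members for each vesicle kind. Its HPNE libraries read 15.3, 16.1 and 14.5 FPKM untreated, 13.5, 13.5 and 15 in residual medium, 14.2, 12.8 and 11.8 with PANC-1 vesicles and 30.8, 21.7 and 21.6 with PPCL-68 vesicles. Here the PANC-1 libraries overlapped with residual medium (-0.11 ± 0.13, adjusted p = 0.547) and the PPCL-68 libraries were all higher (0.76 ± 0.13, adjusted p = 0.00112).

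DNAJC3, a co-chaperone also known as an inhibitor of the eIF2alpha kinases, separated the vesicle kinds. In HPDE its libraries read 12.6, 12.5 and 12.2 FPKM untreated, 10.6, 11.5 and 11.8 in residual medium, 11.6, 10.8 and 10.8 with PANC-1 vesicles and 28.7, 27.4 and 26.3 with PPCL-68 vesicles. PPCL-68 vesicles raised it by 1.21 ± 0.05 (adjusted p = 8.54e-11), and the PANC-1 difference was -0.02 ± 0.05 (adjusted p = 0.716). In HPNE the readings were 17.8, 17.1 and 18.9 FPKM untreated, 23.9, 23 and 21.6 in residual medium, 19.3, 18 and 16.9 with PANC-1 vesicles and 28.1, 24 and 22.6 with PPCL-68 vesicles, and all PANC-1 libraries were below residual medium. It fell by 0.32 ± 0.09 (adjusted p = 0.0255) with PANC-1 vesicles, and the PPCL-68 difference was 0.12 ± 0.09 (adjusted p = 0.326). Every residual medium library of HPNE was above fresh medium, and the PANC-1 libraries overlapped with fresh medium. Of the other two J-domain genes, DNAJC10, an ER disulfide reductase, rose with both vesicle kinds in HPDE (0.19 and 0.65), and DNAJB11, a BiP partner for nascent chains, fell with PANC-1 (-0.20) and rose with PPCL-68 vesicles (0.16).

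HSP90B1, the Hsp90-family chaperone of the ER, was abundant in HPDE, at 453, 495 and 459 FPKM untreated, 430, 469 and 459 in residual medium, 433, 451 and 411 with PANC-1 vesicles and 609, 585 and 538 with PPCL-68 vesicles. It rose by 0.35 ± 0.06 (adjusted p = 0.000107) with PPCL-68 vesicles, and PANC-1 libraries overlapped with the control (-0.07 ± 0.06, adjusted p = 0.318). The HPNE libraries read 179, 173 and 271 FPKM untreated, 352, 341 and 264 in residual medium, 229, 301 and 297 with PANC-1 vesicles and 286, 280 and 281 with PPCL-68 vesicles. Residual medium was higher than fresh medium by 0.63 ± 0.18 (adjusted p = 0.0163), although the groups overlapped through the libraries that lay apart.

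CALR, a soluble lectin chaperone that also buffers calcium, went the other way. In HPDE it read 492, 508 and 508 FPKM untreated, 495, 505 and 501 in residual medium, 382, 415 and 391 with PANC-1 vesicles and 425, 418 and 404 with PPCL-68 vesicles. Every vesicle library was below every control library: it fell by 0.34 ± 0.04 (adjusted p = 1.33e-05) with PANC-1 vesicles and fell by 0.27 ± 0.04 (adjusted p = 9.57e-05) with PPCL-68 vesicles. CALR in HPNE read 321, 317 and 600 FPKM untreated, 707, 675 and 463 in residual medium, 322, 589 and 581 with PANC-1 vesicles and 303, 347 and 361 with PPCL-68 vesicles. Untreated library 3, residual medium library 3 and PANC-1 library 1 lay far from the rest of their groups. It fell by 0.84 ± 0.29 (adjusted p = 0.0377) with PPCL-68 vesicles, and the difference between residual and fresh medium was 0.62 ± 0.29 (adjusted p = 0.103) with all libraries and 1.11 (adjusted p = 2.03e-08) without the 4 apart. CANX, its membrane-bound relative, rose in HPDE by 0.19 and 0.82.

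The disulfide isomerases did not move as a block. PDIA4 in HPDE read 121, 126 and 120 FPKM untreated, 123, 123 and 123 in residual medium, 104, 110 and 105 with PANC-1 vesicles and 125, 129 and 120 with PPCL-68 vesicles. It fell by 0.21 ± 0.04 (adjusted p = 0.000552) with PANC-1 vesicles, and with PPCL-68 vesicles the difference was 0.02 ± 0.04 (adjusted p = 0.673). In HPNE PDIA4 read 53.2, 49.2 and 78.8 FPKM untreated, 125, 125 and 82.3 in residual medium, 61.6, 89.4 and 89 with PANC-1 vesicles and 65.9, 58 and 63.1 with PPCL-68 vesicles. The 2 close residual medium libraries were the highest of the 12, residual medium exceeded fresh medium by 0.87 ± 0.21 (adjusted p = 0.00846), and with PPCL-68 vesicles it fell by 0.79 ± 0.21 (adjusted p = 0.0127). P4HB, PDIA3 and PDIA6, isomerases of the same family, rose with PPCL-68 vesicles in HPDE by 0.63, 0.31 and 0.25. In HPNE these 3 were higher in residual than in fresh medium by 0.73, 0.47 and 0.54, and P4HB (-0.57) and PDIA3 (-0.35) fell with PPCL-68 vesicles.

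SDF2L1, CRELD2 and MANF are small ER-resident proteins known as ER stress targets. SDF2L1 in HPDE read 39.2, 42.9 and 43.1 FPKM untreated, 60.2, 44.4 and 50.9 in residual medium, 24.6, 30.8 and 30.6 with PANC-1 vesicles and 43.9, 55.2 and 45.7 with PPCL-68 vesicles. The PANC-1 libraries were the lowest and it fell by 0.83 ± 0.11 (adjusted p = 1.26e-05), the largest fall among the 40 in that comparison, and the PPCL-68 difference was -0.10 ± 0.11 (adjusted p = 0.441). SDF2L1 in HPNE read 9.78, 11.5 and 20.7 FPKM untreated, 34.4, 35.4 and 14.8 in residual medium, 11.1, 19.1 and 21.3 with PANC-1 vesicles and 14.5, 14.6 and 16.8 with PPCL-68 vesicles. It rose by 0.93 ± 0.35 (adjusted p = 0.0478) from fresh to residual medium, with overlap between the groups, and without the 4 libraries apart the difference was 1.63 (adjusted p = 1.05e-07).

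MANF, which is also secreted, read 20.8, 22.7 and 22.7 FPKM untreated, 27.1, 23.4 and 24.8 in residual medium, 18.4, 19.3 and 16.6 with PANC-1 vesicles and 33.6, 36.2 and 32.7 with PPCL-68 vesicles in HPDE. It fell by 0.45 ± 0.06 (adjusted p = 3.18e-05) with PANC-1 vesicles and rose by 0.43 ± 0.06 (adjusted p = 3.49e-05) with PPCL-68 vesicles, with no overlap in either comparison. In HPNE the MANF values were 18, 19.7 and 27.4 FPKM untreated, 48.9, 51.5 and 28.9 in residual medium, 17.8, 28.1 and 28.5 with PANC-1 vesicles and 24.4, 28.6 and 30.1 with PPCL-68 vesicles. It rose by 0.94 ± 0.24 (adjusted p = 0.0102) from fresh to residual medium, and with PANC-1 vesicles it fell by 0.76 ± 0.24 (adjusted p = 0.0405), the largest fall of a folding gene there.

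CRELD2, a disulfide isomerase-like protein, read 5.95, 5.77 and 7.02 FPKM untreated, 7.19, 6.35 and 7.55 in residual medium, 6.28, 6.72 and 5.99 with PANC-1 vesicles and 10.7, 11 and 9.21 with PPCL-68 vesicles in HPDE. It rose by 0.49 ± 0.08 (adjusted p = 9.19e-05) with PPCL-68 vesicles, and the PANC-1 difference was -0.13 ± 0.08 (adjusted p = 0.179). CRELD2 in HPNE read 10.3, 10.5 and 13.3 FPKM untreated, 17.6, 17.1 and 12.7 in residual medium, 10.4, 14.5 and 16 with PANC-1 vesicles and 9.94, 9.42 and 10.5 with PPCL-68 vesicles. All PPCL-68 libraries were below residual medium, and it fell by 0.60 ± 0.16 (adjusted p = 0.0128). The PPCL-68 libraries overlapped with fresh medium. The prolyl isomerase PPIB rose with PPCL-68 vesicles in HPDE (0.72) and fell in HPNE (-0.33), and FKBP2 passed no test against residual medium, with differences from -0.36 to 0.05.

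**Figure D2:**
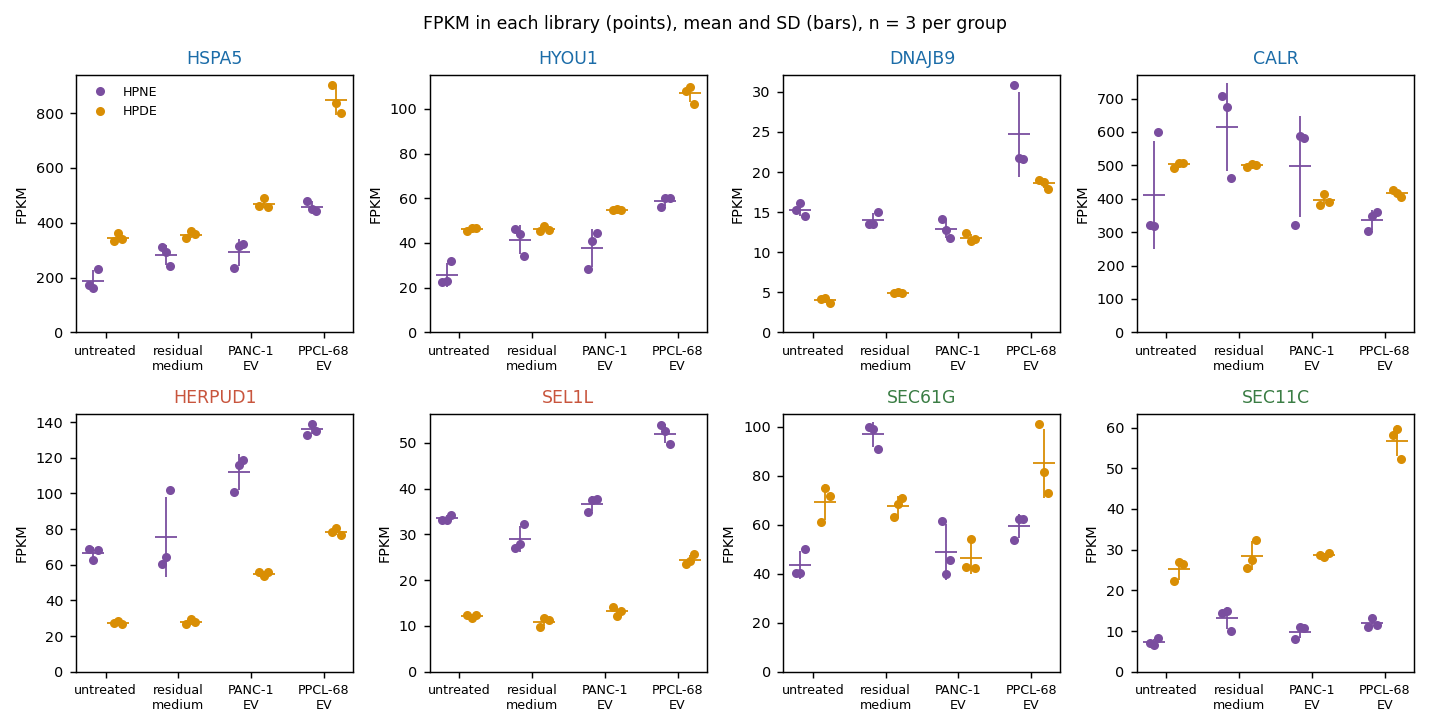
FPKM of 8 members in each library (points), with the group mean and SD (bars, n = 3), for HPNE (purple) and HPDE (orange) under the 4 treatments, on linear axes from 0. In HPDE, HSPA5, HYOU1, DNAJB9, HERPUD1 and SEL1L step up from residual medium through PANC-1 to PPCL-68 vesicles, CALR is lower with both vesicle kinds, and the SEC61G mean is lowest with PANC-1 and highest with PPCL-68 vesicles.

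Among the degradation genes, HERPUD1 and SEL1L rose in all 4 comparisons of vesicles with residual medium. Neither call with PANC-1 vesicles in HPNE held under every alternative tried, and against fresh medium SEL1L did not pass there. HERPUD1, a ubiquitin-like membrane protein of the SYVN1 complex, read 27.4, 28.3 and 26.9 FPKM untreated, 26.6, 29.7 and 27.6 in residual medium, 55.9, 53.5 and 55.8 with PANC-1 vesicles and 78.4, 80.7 and 76.5 with PPCL-68 vesicles in HPDE. PANC-1 libraries lay above every control, PPCL-68 libraries above those, and the rises were 0.95 ± 0.05 (adjusted p = 4.9e-10) and 1.46 ± 0.05 (adjusted p = 4.91e-12). Its HPNE libraries read 68.8, 62.9 and 68.5 FPKM untreated, 60.6, 64.4 and 102 in residual medium, 101, 116 and 119 with PANC-1 vesicles and 133, 139 and 135 with PPCL-68 vesicles. The rises there were 0.60 ± 0.16 (adjusted p = 0.0211) and 0.88 ± 0.16 (adjusted p = 0.00182), and residual medium library 3 overlapped with the PANC-1 group. Without the 4 libraries apart they were 0.90 (adjusted p = 5.75e-07) and 1.12 (adjusted p = 9.07e-08).

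SEL1L, the adaptor that holds the ligase complex together, measured 12.4, 11.8 and 12.4 FPKM untreated, 9.85, 11.7 and 11.2 in residual medium, 14.1, 12.2 and 13.2 with PANC-1 vesicles and 23.5, 24.1 and 25.6 with PPCL-68 vesicles in HPDE. The rise was 0.25 ± 0.06 (adjusted p = 0.00356) with PANC-1 and 1.09 ± 0.06 (adjusted p = 2.29e-09) with PPCL-68 vesicles. In HPNE it measured 33.1, 33.2 and 34.3 FPKM untreated, 27, 27.9 and 32.2 in residual medium, 34.8, 37.6 and 37.7 with PANC-1 vesicles and 53.8, 52.6 and 49.7 with PPCL-68 vesicles. No vesicle library overlapped with residual medium there, and the rises were 0.33 ± 0.08 (adjusted p = 0.0129) and 0.82 ± 0.08 (adjusted p = 5.13e-05). SYVN1, the ubiquitin ligase itself, measured 12.8, 13.2 and 13 FPKM untreated, 13.8, 12.5 and 12.4 in residual medium, 13.9, 13.7 and 13.8 with PANC-1 vesicles and 19.7, 21.2 and 20.9 with PPCL-68 vesicles in HPDE. It rose by 0.64 ± 0.05 (adjusted p = 3.28e-08) with PPCL-68 vesicles, and the PANC-1 difference was 0.09 ± 0.05 (adjusted p = 0.106). In HPNE SYVN1 measured 11.8, 13.1 and 11.6 FPKM untreated, 12.2, 10.5 and 11.9 in residual medium, 13.5, 10.3 and 11.6 with PANC-1 vesicles and 14.8, 13.3 and 13.4 with PPCL-68 vesicles. The differences from residual medium were 0.03 ± 0.10 (adjusted p = 0.863) and 0.25 ± 0.10 (adjusted p = 0.075).

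EDEM1, which recognises trimmed glycans on misfolded proteins, read 10.7, 10 and 9.76 FPKM untreated, 8.42, 9.34 and 9.5 in residual medium, 14, 11.8 and 12.3 with PANC-1 vesicles and 15.1, 15.5 and 16.5 with PPCL-68 vesicles in HPDE. All vesicle libraries were above all controls, by 0.44 ± 0.07 (adjusted p = 4.61e-05) and 0.73 ± 0.07 (adjusted p = 2.29e-07). EDEM1 in HPNE read 16.5, 16.5 and 14.7 FPKM untreated, 18.3, 18 and 19.9 in residual medium, 18.1, 18.5 and 17.5 with PANC-1 vesicles and 25.5, 21.9 and 19 with PPCL-68 vesicles. It did not pass against residual medium, with -0.05 ± 0.10 (adjusted p = 0.722) for PANC-1 and 0.22 ± 0.10 (adjusted p = 0.0985) for PPCL-68 vesicles. EDEM3, a mannosidase of the same family, read 11.3, 10.9 and 10.4 FPKM untreated, 9.2, 9.4 and 9.62 in residual medium, 10.6, 9.61 and 10.4 with PANC-1 vesicles and 14.8, 15 and 15.8 with PPCL-68 vesicles in HPDE. The PPCL-68 libraries were the highest, and it rose by 0.64 ± 0.05 (adjusted p = 5.87e-08) with PPCL-68 vesicles. In HPNE it read 16.7, 16.5 and 22 FPKM untreated, 21.9, 23.5 and 19 in residual medium, 16.5, 17.1 and 16.6 with PANC-1 vesicles and 17.6, 18.6 and 18.1 with PPCL-68 vesicles. All PANC-1 libraries were below residual medium, and it fell by 0.34 ± 0.11 (adjusted p = 0.0459) with PANC-1 vesicles. The PANC-1 libraries overlapped with fresh medium. EDEM2 rose only with PPCL-68 vesicles in HPDE, by 0.52, among the 4 comparisons with residual medium.

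OS9, a lectin that delivers glycoproteins to the ligase, differed between the control media in HPNE. Its HPNE libraries read 65.4, 62.6 and 54.5 FPKM untreated, 41.1, 39.8 and 50 in residual medium, 49.4, 47.6 and 45.7 with PANC-1 vesicles and 52.1, 41.8 and 41.5 with PPCL-68 vesicles. Residual medium was lower than fresh medium in every library, and it fell by 0.47 ± 0.12 (adjusted p = 0.00849), the 1 fall among the 40 in that comparison. In HPDE it read 23.3, 25 and 23.7 FPKM untreated, 26.3, 25.7 and 25.1 in residual medium, 23.5, 24.8 and 23.5 with PANC-1 vesicles and 29.9, 27.8 and 28.1 with PPCL-68 vesicles. It rose by 0.15 ± 0.04 (adjusted p = 0.00876) with PPCL-68 vesicles.

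DERL1, a channel-forming derlin, read 11.9, 12.2 and 12 FPKM untreated, 10.6, 12 and 11.4 in residual medium, 8.61, 8.18 and 7.98 with PANC-1 vesicles and 11.7, 11.5 and 12 with PPCL-68 vesicles in HPDE. It fell by 0.42 ± 0.05 (adjusted p = 7.14e-06) with PANC-1 vesicles and stayed within the control range with PPCL-68 vesicles (0.05 ± 0.05, adjusted p = 0.421). In HPNE DERL1 read 12.7, 12.1 and 11.2 FPKM untreated, 11.4, 10.6 and 12.4 in residual medium, 14, 11.7 and 10.3 with PANC-1 vesicles and 13.9, 11.6 and 11.4 with PPCL-68 vesicles. All 4 groups overlapped and no comparison within that line passed. DERL2 rose with PPCL-68 vesicles in HPDE (0.52).

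DERL3 was below the filter in both lines and was not tested. In HPDE it read 1.21, 1.32 and 1.26 FPKM untreated, 1.17, 1.24 and 0.905 in residual medium, 0.833, 0.641 and 0.686 with PANC-1 vesicles and 0.777, 0.848 and 0.725 with PPCL-68 vesicles. All 6 vesicle libraries were below all 6 control libraries. In HPNE it read 0.256, 0.317 and 0.186 FPKM untreated, 0.172, 0.163 and 0.0373 in residual medium, 0.137, 0.189 and 0.19 with PANC-1 vesicles and 0.0522, 0.142 and 0.0776 with PPCL-68 vesicles, which is 4 to 35 reads per library.

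Of the 13 translocation genes in HPDE, 9 fell with PANC-1 vesicles (69.2%, beside 35.1% of all genes). With PPCL-68 vesicles 9 rose (69.2%) and 2 fell (15.4%), beside 31.3% and 36.4% of all genes. Against fresh medium 7 fell with PANC-1 vesicles (53.8%, beside 34.4% of all genes). SEC61A1, the pore of the channel, read 95.1, 92.9 and 99.2 FPKM untreated, 97, 99 and 97.9 in residual medium, 93.6, 93.4 and 97.4 with PANC-1 vesicles and 164, 164 and 161 with PPCL-68 vesicles in HPDE. It rose by 0.73 ± 0.04 (adjusted p = 6.84e-10) with PPCL-68 vesicles, and PANC-1 libraries overlapped with the control (-0.05 ± 0.04, adjusted p = 0.291). Its HPNE libraries read 139, 137 and 146 FPKM untreated, 187, 187 and 169 in residual medium, 140, 171 and 169 with PANC-1 vesicles and 190, 197 and 193 with PPCL-68 vesicles. It was higher in residual than in fresh medium by 0.36 ± 0.09 (adjusted p = 0.0105), and the differences of the vesicle groups from residual medium were -0.18 ± 0.09 (adjusted p = 0.174) and 0.10 ± 0.09 (adjusted p = 0.442).

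Against residual medium, the small channel subunits SEC61B and SEC61G fell with PANC-1 vesicles in both lines. The comparison with fresh medium differed, as given for each below. SEC61B in HPDE read 80.3, 77.3 and 88.5 FPKM untreated, 95.1, 108 and 112 in residual medium, 71.6, 76.9 and 73.8 with PANC-1 vesicles and 123, 128 and 114 with PPCL-68 vesicles. It fell by 0.49 ± 0.07 (adjusted p = 1.35e-05) with PANC-1 vesicles, rose by 0.21 ± 0.07 (adjusted p = 0.00911) with PPCL-68 vesicles, and differed between the control media by 0.35 ± 0.07 (adjusted p = 0.00216). Its PANC-1 difference from fresh medium was -0.14 ± 0.07 (adjusted p = 0.0701). SEC61B in HPNE read 73.7, 74.2 and 78.7 FPKM untreated, 112, 114 and 94.5 in residual medium, 59.9, 80.7 and 80.9 with PANC-1 vesicles and 100, 102 and 102 with PPCL-68 vesicles. There it fell by 0.54 ± 0.12 (adjusted p = 0.00923) with PANC-1 vesicles, and the PPCL-68 difference was -0.07 ± 0.12 (adjusted p = 0.655). Every residual medium library of HPNE was above fresh medium. The PANC-1 libraries overlapped with fresh medium, and that difference did not pass.

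SEC61G in HPDE read 60.9, 74.8 and 71.6 FPKM untreated, 63, 68.3 and 71 in residual medium, 42.6, 54 and 42.4 with PANC-1 vesicles and 101, 81.6 and 72.8 with PPCL-68 vesicles. It fell by 0.54 ± 0.11 (adjusted p = 0.000788) with PANC-1 vesicles and rose by 0.32 ± 0.11 (adjusted p = 0.0215) with PPCL-68 vesicles, in both cases without overlap. In HPNE SEC61G read 40.4, 40.2 and 50 FPKM untreated, 100, 99 and 90.9 in residual medium, 61.6, 39.8 and 45.4 with PANC-1 vesicles and 53.7, 62.4 and 62.3 with PPCL-68 vesicles. Residual medium stood above the other 9 libraries: it was higher than fresh medium by 1.14 ± 0.15 (adjusted p = 0.00032), and against it SEC61G fell by 0.99 ± 0.15 (adjusted p = 0.00137) with PANC-1 and fell by 0.70 ± 0.15 (adjusted p = 0.00404) with PPCL-68 vesicles. Against fresh medium the PANC-1 difference was 0.15 ± 0.15 (adjusted p = 0.494) and the PPCL-68 difference 0.44 ± 0.15 (adjusted p = 0.0307).

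SEC63, a J-domain partner of the channel, read 26.6, 26.2 and 27.5 FPKM untreated, 25.1, 26.1 and 26.8 in residual medium, 28.8, 31.5 and 32.2 with PANC-1 vesicles and 43.5, 48.9 and 46.4 with PPCL-68 vesicles in HPNE. It rose by 0.24 ± 0.07 (adjusted p = 0.0372) and 0.81 ± 0.07 (adjusted p = 4.37e-05), and without the 4 libraries apart by 0.30 (adjusted p = 0.000432) and 0.87 (adjusted p = 2.33e-07). In HPDE SEC63 read 23.8, 23.1 and 22.5 FPKM untreated, 19.6, 21.2 and 21.2 in residual medium, 22.7, 21.2 and 21.2 with PANC-1 vesicles and 36.6, 32.9 and 33.9 with PPCL-68 vesicles. There it rose with PPCL-68 vesicles by 0.71 ± 0.05 (adjusted p = 1.9e-08). SEC62, which works beside it in post-translational entry, was 1 of 3 members lower with PPCL-68 vesicles in HPDE (-0.13). Its call was lost in 4 of 12 alternatives, including rescaling by size factors (adjusted p = 0.0578), and that of SPCS1 in 6 of 12 (adjusted p = 0.05 with size factors).

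SEC11C, a catalytic subunit of signal peptidase, read 22.3, 26.9 and 26.4 FPKM untreated, 25.6, 27.4 and 32.4 in residual medium, 28.7, 28.3 and 29.3 with PANC-1 vesicles and 58.2, 59.7 and 52.4 with PPCL-68 vesicles in HPDE. PPCL-68 vesicles raised it by 0.98 ± 0.08 (adjusted p = 1.08e-07), the largest translocation rise in that comparison, and PANC-1 libraries overlapped with the control (0.02 ± 0.08, adjusted p = 0.838). SEC11C in HPNE read 7.14, 6.48 and 8.16 FPKM untreated, 14.4, 14.9 and 9.96 in residual medium, 7.92, 11 and 10.7 with PANC-1 vesicles and 10.9, 13.3 and 11.4 with PPCL-68 vesicles. It was higher in residual than in fresh medium by 0.75 ± 0.16 (adjusted p = 0.00411).

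SPCS3, another peptidase subunit, read 46.4, 43.9 and 46.7 FPKM untreated, 39.8, 46.5 and 43.9 in residual medium, 38.3, 36.2 and 35.2 with PANC-1 vesicles and 47.7, 47 and 44.6 with PPCL-68 vesicles in HPDE. It fell by 0.24 ± 0.06 (adjusted p = 0.00171) with PANC-1 vesicles and differed by 0.10 ± 0.06 (adjusted p = 0.138) with PPCL-68 vesicles. In HPNE it read 32.7, 30 and 35.6 FPKM untreated, 49.8, 52.7 and 40.4 in residual medium, 32.7, 33.5 and 29.1 with PANC-1 vesicles and 43.7, 41.6 and 38.4 with PPCL-68 vesicles. No PANC-1 library reached the residual medium range, and it fell by 0.56 ± 0.11 (adjusted p = 0.0053) with PANC-1 vesicles. Every residual medium library was above fresh medium, and the PANC-1 libraries overlapped with fresh medium. The accessory subunit SPCS1 read 30.6, 28.5 and 25.9 FPKM untreated, 29.2, 25.8 and 28.1 in residual medium, 22.7, 23.8 and 24.3 with PANC-1 vesicles and 24.7, 24.9 and 23.3 with PPCL-68 vesicles in HPDE. It fell by 0.22 ± 0.06 (adjusted p = 0.00554) with PANC-1 and fell by 0.18 ± 0.06 (adjusted p = 0.0168) with PPCL-68 vesicles. In HPNE SPCS1 read 48.5, 48.7 and 48.3 FPKM untreated, 57, 54.1 and 54.1 in residual medium, 45.7, 50.6 and 47.1 with PANC-1 vesicles and 56.2, 47.7 and 48.7 with PPCL-68 vesicles, and no comparison within that line passed. SPCS2 fell with PANC-1 (-0.21) and rose with PPCL-68 vesicles (0.26) in HPDE.

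SSR3 had the largest response to residual medium in HPNE, where it read 99.1, 95.5 and 127 FPKM untreated, 286, 290 and 182 in residual medium, 141, 147 and 158 with PANC-1 vesicles and 172, 215 and 192 with PPCL-68 vesicles. Residual medium libraries 1 and 2 were the highest of the 12, library 3 was lower, and all 3 exceeded fresh medium, by 1.21 ± 0.18 (adjusted p = 0.00063). It fell by 0.73 ± 0.18 (adjusted p = 0.0138) with PANC-1 vesicles. In HPDE SSR3 read 181, 184 and 189 FPKM untreated, 175, 194 and 183 in residual medium, 155, 162 and 148 with PANC-1 vesicles and 199, 171 and 171 with PPCL-68 vesicles. It fell by 0.25 ± 0.06 (adjusted p = 0.00238) with PANC-1 vesicles. The other TRAP subunits SSR1, SSR2 and SSR4 fell with PANC-1 vesicles in HPDE (-0.18, -0.45 and -0.25) and rose with PPCL-68 vesicles (0.66, 0.34 and 0.36).

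Summed over a role, the levels show how much message was involved. The 18 folding genes of HPDE summed to 2312, 2464 and 2377 FPKM untreated, 2327, 2417 and 2389 in residual medium, 2310, 2440 and 2292 with PANC-1 and 3534, 3401 and 3233 with PPCL-68 vesicles, so only the last group stood apart. The 10 degradation genes of HPDE summed to 125, 132 and 127 FPKM in residual medium, 163, 155 and 158 with PANC-1 and 222, 227 and 224 with PPCL-68 vesicles, a step at each vesicle kind. The 13 translocation genes summed to 699, 742 and 739, 598, 629 and 601 and 947, 905 and 856 FPKM, lowest with PANC-1 vesicles. HERPUD1 alone, with the values given above, made up most of the PANC-1 step of the degradation sum and a large part of the PPCL-68 step. In HPNE the folding sum was 1581, 1547 and 2241 FPKM untreated, 2827, 2760 and 2210 in residual medium, 1828, 2374 and 2380 with PANC-1 and 2236, 2206 and 2233 with PPCL-68 vesicles. In each of the first 3 groups 1 library lay apart from the other two, and these groups overlapped. HPNE degradation genes summed to 242, 234 and 235 FPKM untreated, 212, 214 and 264 in residual medium, 263, 275 and 275 with PANC-1 and 331, 317 and 306 with PPCL-68 vesicles, which did not overlap with the rest. HERPUD1 also made up most of the rise of this sum over residual medium with either vesicle kind.

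**Figure D3:**
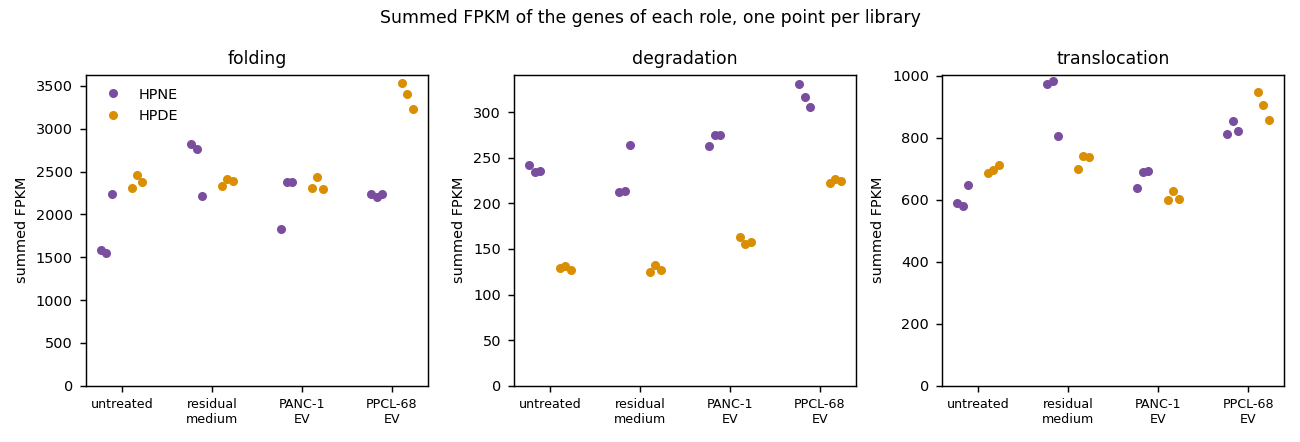
Summed FPKM of the folding, degradation and translocation genes in each library (1 point per library, 3 per group), for HPNE (purple) and HPDE (orange) under the 4 treatments. In HPDE all 3 sums are highest with PPCL-68 vesicles (3233 to 3534, 222 to 227 and 856 to 947 FPKM), and in HPNE the translocation sum is highest in residual medium libraries 1 and 2 (975 and 984 FPKM).

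The 2 vesicle sources were compared directly at the same number of vesicles and the same time. In HPDE 37 of 40 members were higher with PPCL-68 than with PANC-1 vesicles and 1 (SEC62) was lower, with a median of 0.54, beside 24.9% higher and 25.2% lower over all genes and a median of 0.00. The largest differences were those of DNAJC3 (1.23 ± 0.05, adjusted p = 6.56e-10), SEC11C (0.96 ± 0.08, adjusted p = 5.06e-07) and HYOU1 (0.94 ± 0.04, adjusted p = 6.56e-10). CALR and SPCS1 did not pass, with 95% intervals of -0.02 to 0.17 and -0.09 to 0.17. In HPNE 7 were higher and 0 lower (background 2.25% and 3.22%). In the lower direction, 1 had an unadjusted p under 0.05 and 0 passed by limma-voom. The largest differences that passed were those of DNAJB9 (0.87 ± 0.13, adjusted p = 0.00461), HSPA5 (0.66 ± 0.16, adjusted p = 0.04) and SEC63 (0.57 ± 0.07, adjusted p = 0.00377). Same-numbered libraries of these 2 HPNE groups deviated together, and a fit that blocks on replicate number left 5 higher: the calls of HSPA5 (adjusted p = 0.0672) and SEC61B (adjusted p = 0.0642) were lost. Without the 4 libraries apart, 17 were higher and 10 lower, beside 13.8% and 22.6% of all genes, and the lower ones included CALR at -0.72 (adjusted p = 7.93e-06) and PDIA4 at -0.55 (adjusted p = 7.99e-05).

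**Figure D4:**
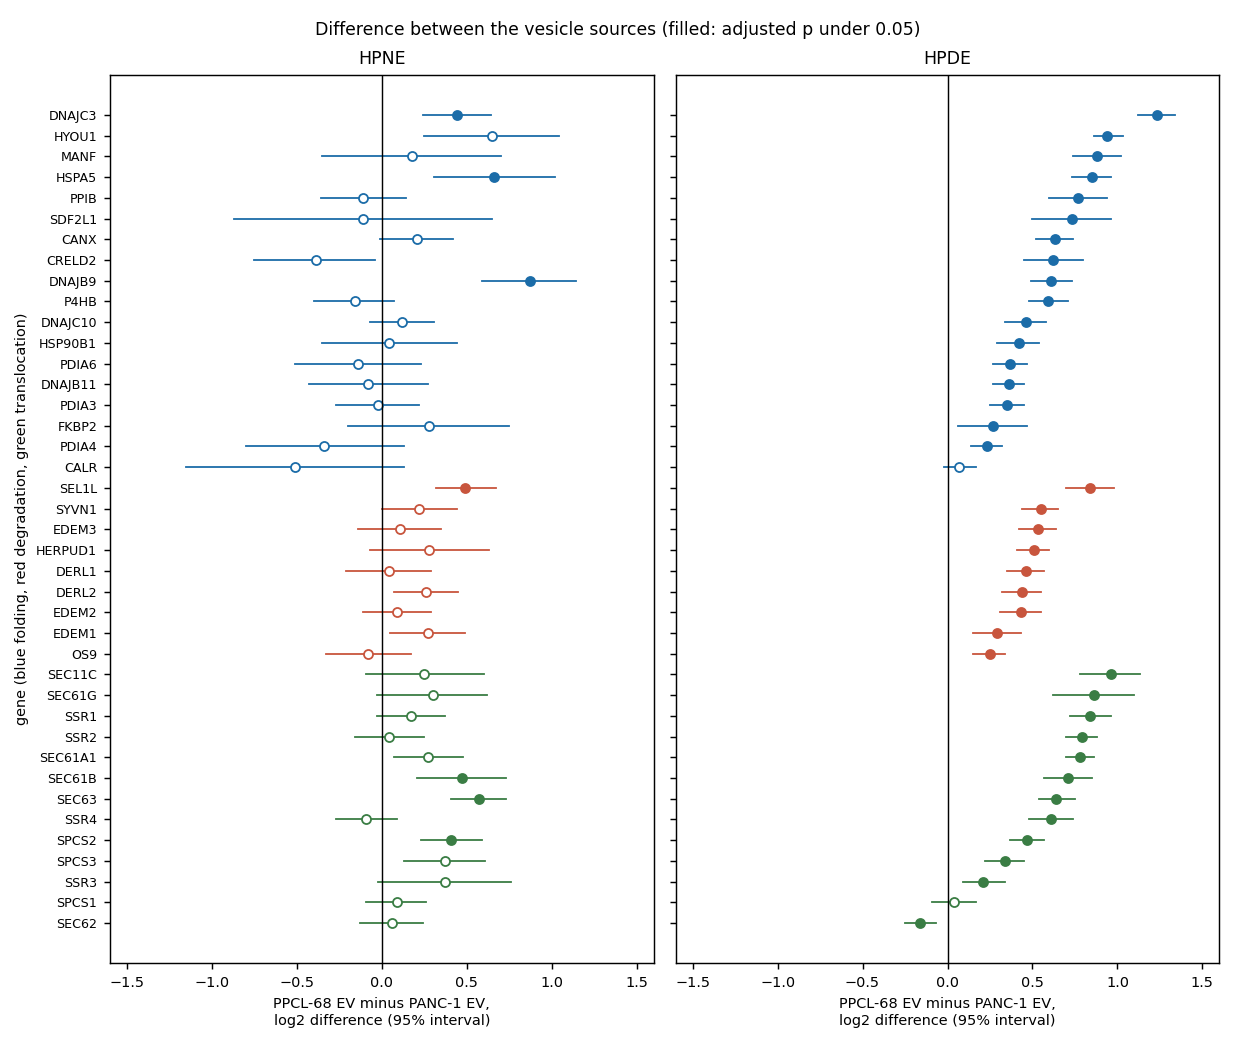
Difference between PPCL-68 and PANC-1 vesicles for each of the 40 genes (log2 difference with its 95% interval from the limma fit, coloured by role), in HPNE (left) and HPDE (right); filled points passed at an adjusted p under 0.05. In HPDE 38 points are filled and all but SEC62 of these lie right of 0, while in HPNE 7 are filled and the intervals are wider.

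Measured against fresh medium the picture in HPDE was close to that against residual medium. PPCL-68 vesicles gave 32 higher and 3 lower (background 30.1% and 36.1%) and PANC-1 vesicles 8 and 15 (background 26.3% and 34.4%). In HPNE the counts differed with the control. Against fresh medium PPCL-68 vesicles gave 17 higher and 1 lower (background 18.7% and 23.8%), led by HSPA5 (1.29 ± 0.16, adjusted p = 0.000152), HYOU1 (1.18 ± 0.18, adjusted p = 0.000477) and HERPUD1 (1.02 ± 0.16, adjusted p = 0.000591). PANC-1 vesicles gave 2 higher, HERPUD1 and HSPA5, and 0 lower by limma (background 9.61% and 11.5%). In the lower direction, 1 had an unadjusted p under 0.05 and 0 passed by limma-voom. Without the 4 libraries apart the PANC-1 counts were 22 and 3, beside 29.3% and 33.4% of all genes. CALR turned in sign in the PPCL-68 comparison with fresh medium, from -0.23 ± 0.29 (adjusted p = 0.558) to 0.15 (adjusted p = 0.0165).

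The response of the lines was compared in 1 fit of all 24 libraries, over 10483 genes. The log2 difference between PPCL-68 vesicles and residual medium was higher in HPDE than in HPNE for 26 of the 40 members and lower for 0 by limma (background 11.4% and 11.6%). In the lower direction, 1 had an unadjusted p under 0.05 and 0 passed by limma-voom. The largest differences in response were those of P4HB (1.20 ± 0.12, adjusted p = 1.09e-06), CRELD2 (1.10 ± 0.19, adjusted p = 0.000329) and DNAJC3 (1.09 ± 0.10, adjusted p = 5.32e-07). P4HB and CRELD2 rose in HPDE and fell in HPNE against residual medium, whereas for SEL1L, which rose in both, the difference was 0.27 ± 0.10 (adjusted p = 0.0586). With PANC-1 vesicles that difference was higher in HPDE for 6 members and lower for 1, DERL1 (background 7.51% and 10.7%). DNAJB9 led with 1.21 ± 0.14 (adjusted p = 1.06e-05). The HPNE residual medium libraries, including the one apart, enter every one of these differences.

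Untreated HPDE and HPNE cells differed in many members. As deposited, 15 were higher in HPDE and 16 lower (background 55.4% and 26.2%). The median of all genes was 0.344 on this scale and -0.003 after size factor scaling, which gave 10 higher and 22 lower beside 39.9% and 39.7% of all genes. DNAJB9, SEL1L, OS9 and HERPUD1 were lower in HPDE, with differences of -1.69, -1.39, -1.30 and -1.25, and of -2.03, -1.77, -1.69 and -1.64 after scaling. SEC11C, SDF2L1, HSP90B1 and PDIA4 were higher in HPDE, with differences of 1.67, 1.58, 1.20 and 1.04, and of 1.29, 1.19, 0.80 and 0.64 after scaling. Of the degradation genes, 6 of 9 were lower in HPDE and 1, EDEM2, higher.

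Other genes of the pathway were taken from lists that hold none of the 41. These lists too were chosen with earlier results of these data known, so contrasts between lists are descriptions. Of 10 sensors and factors of the unfolded protein response, 8 rose and 1 fell with PPCL-68 vesicles in HPDE, 7 rose and 1 fell with PANC-1 vesicles there, and in HPNE 5 and 4 rose and 0 fell by limma with either vesicle kind. Over all genes tested the shares higher and lower were 31.3% and 36.4% with PPCL-68 and 28.2% and 35.1% with PANC-1 vesicles in HPDE. In HPNE they were 20.3% and 19.7% with PPCL-68 and 13.9% and 10.3% with PANC-1 vesicles. For falls in HPNE, 0 had an unadjusted p under 0.05 and 0 passed by limma-voom with PPCL-68 and 1 had an unadjusted p under 0.05 and 1 passed by limma-voom with PANC-1 vesicles. XBP1, the factor spliced by IRE1, read 45.9, 48.7 and 47 FPKM untreated, 58.6, 56.8 and 55.4 in residual medium, 128, 142 and 132 with PANC-1 vesicles and 153, 145 and 142 with PPCL-68 vesicles in HPDE. It rose by 1.22 ± 0.05 (adjusted p = 5.7e-11) and 1.35 ± 0.05 (adjusted p = 1.4e-11), and in HPNE by 0.62 ± 0.11 (adjusted p = 0.00301) and 0.92 ± 0.11 (adjusted p = 0.000148). These are totals per gene and say nothing of splicing. ERN1, which encodes IRE1, rose by 2.05 and 2.36 in HPDE and by 1.49 and 1.58 in HPNE.

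DDIT3, the stress factor CHOP, read 6.91, 7.43 and 7.98 FPKM untreated, 6.03, 7.16 and 8.99 in residual medium, 50.5, 52 and 53.2 with PANC-1 vesicles and 37.9, 38.6 and 38.1 with PPCL-68 vesicles in HPDE. Unlike 37 of the 40 members it was lower with PPCL-68 than with PANC-1 vesicles (-0.43 ± 0.09, adjusted p = 0.00136). ATF4, its upstream factor, rose by 0.48 and 0.56 in HPDE, and the difference between the vesicle kinds was 0.09 ± 0.04 (adjusted p = 0.0949). ATF6 rose by 0.25 and 0.27 in HPDE and passed no test in HPNE (-0.07 and -0.07). EIF2AK3, which encodes PERK, rose by 0.18 and 0.60 in HPDE and did not pass against residual medium in HPNE (-0.39 and -0.25).

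The other 4 lists had medians between 0.04 and 0.14 in HPDE with PPCL-68 vesicles, against 0.58 for the sensors and factors and 0.46 for the members. In HPDE with PPCL-68 vesicles, 9 of 22 tested other ER folding enzymes rose and 7 fell (median 0.09), 8 of 20 other degradation genes rose and 9 fell (median 0.04), and 6 of 11 genes of the oligosaccharyltransferase, which attaches glycans to entering chains, rose and 1 fell (median 0.12). As shares these are 40.9% higher and 31.8% lower, 40% and 45%, and 54.5% and 9.09%, beside 31.3% and 36.4% of all genes. With PANC-1 vesicles the oligosaccharyltransferase genes stood at 0 higher and 8 lower of 11 (background 28.2% and 35.1%, median -0.17), and for rises 0 had an unadjusted p under 0.05 and 0 passed by limma-voom. Between the vesicle kinds 10 of the 11 were higher with PPCL-68 (background 24.9%), led by OSTC at 1.04 ± 0.06 (adjusted p = 1.07e-08). VCP, the cytosolic ATPase that pulls degradation substrates out of the membrane, fell with PANC-1 vesicles in both lines (-0.89 in HPDE and -0.70 in HPNE), while the lectin ERLEC1 rose by 0.80 with PPCL-68 vesicles in HPDE. Of the 13 genes of the signal recognition particle, its receptor and other translocation genes, 7 rose and 2 fell with PPCL-68 vesicles in HPDE (median 0.14), with SRPRB, a receptor subunit, at 0.62 ± 0.05 (adjusted p = 4.21e-08). The ER oxidases, which pass disulfide bonds to the isomerases, were called in different comparisons: ERO1L fell in HPNE (-0.91 with PANC-1 and -0.80 with PPCL-68 vesicles), and ERO1LB rose by 0.83 with PPCL-68 vesicles in HPDE.

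Members with and without the promoter letters shown above overlapped in their response. In HPDE with PPCL-68 vesicles, 6 of the 8 genes with an ERSE or ERSE-II match rose and 1 fell, with a median of 0.66 and a range of -0.27 to 1.46, and 24 of the 29 without a match rose and 1 fell, with a median of 0.52 and a range of -0.13 to 1.71. Over all genes 31.3% and 36.4% were higher and lower there. CALR, SDF2L1 and CRELD2 carry a match and stood at -0.27, -0.10 and 0.49, and DNAJB9, DNAJC3 and SEL1L, without one, at 1.71, 1.21 and 1.09. In HPNE between residual and fresh medium, the medians were 0.60 for the 8 and 0.26 for the 29. No test was made of these differences, and no match says only that the letters are not in the window.

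Where genes share a stretch, strand cannot tell their reads apart, since the library kit keeps no strand. Overlap was taken over whole gene spans, introns included, and overlap of exons was not tested. In the deposited annotation 28 of the 41 members overlap another gene and 18 overlap a protein-coding one, among them SYVN1 (MRPL49 and FAU), DNAJB9 (PNPLA8 and THAP5), SEC61A1 (RUVBL1) and CRELD2 (ALG12), while HSPA5, PDIA4, SEL1L, SDF2L1, MANF, SEC61B, SEC11C and SSR3 overlap none.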

How the data were processed

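Gene tables of the 24 libraries hold FPKM values as deposited. Per the submitters' processing notes the authors used CASAVA, STAR, HTSeq and DESeq2 with build hg19, and versions are not given in the sources used here. Per the labels' protocols the library kit was non-directional. Multiplying each FPKM by gene length and depth gave whole reads (tolerance 0.01 reads).

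Differences were tested with limma 3.58.1 in R 4.3.3 on log2(FPKM + 1), with empirical Bayes moderation along the mean level, over genes with a mean of at least 1 FPKM. Each line's 12 libraries were fitted together (8 residual degrees of freedom), and differences between lines used all 24 (16 residual degrees of freedom). The scripts were tested on simulated data. The 41 members and the pathway lists were chosen with earlier results of these data known. Values in every library are given for 22 members picked for their roles and for the member of each role with the largest rise and fall against residual medium, others by difference or count. DERL3 was left out of the tests by the filter. P-values measure the spread between libraries of 1 cell line.

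Replicate numbers were checked for pairing by correlating same-numbered deviations from group means. Only between the 2 HPNE vesicle groups was every one of the 3 correlations over 0.1 (0.292 to 0.565). Between residual and fresh medium in HPNE all 3 were negative (-0.513 to -0.392), so same-numbered libraries there deviated in opposite directions. The pairing between the HPNE vesicle groups comes from the data, not from the labels. Alternatives were another pseudocount (0.1), no filter, size factors, a replicate block, limma-voom on recovered reads (library sizes scaled by median-of-ratios size factors, in place of the TMM factors first planned), the 6 compared libraries alone, leaving out each library, and leaving out the 4 HPNE libraries apart.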

Additional observations from a re-analysis of the deposited data

Results flagged for a closer look

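The response of the 2 lines to the same vesicles, against residual medium, differed by the interaction test of limma for the members below. Each value is the HPDE log2 difference minus the HPNE log2 difference, and all share the HPNE residual medium libraries, of which library 3 lay apart.

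With PANC-1 vesicles the folding genes DNAJB9 (1.21), P4HB (0.44) and DNAJC3 (0.30) and the degradation genes EDEM1 (0.49), EDEM3 (0.44) and DERL2 (0.29) had the higher difference in HPDE. DERL1 (-0.47) had the lower one. DNAJC3 and P4HB fell in HPNE without a called change in HPDE, whereas DNAJB9 rose in HPDE and was not called in HPNE.

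With PPCL-68 vesicles 26 members had the higher difference in HPDE. The folding genes were P4HB (1.20), CRELD2 (1.10), DNAJC3 (1.09), PPIB (1.05), MANF (1.02), DNAJB9 (0.95), PDIA4 (0.81), HYOU1 (0.68), PDIA6 (0.67), CANX (0.66), PDIA3 (0.66), DNAJB11 (0.59), DNAJC10 (0.58) and HSPA5 (0.54). The degradation genes were EDEM3 (0.87), EDEM2 (0.62), HERPUD1 (0.58), EDEM1 (0.51), DERL2 (0.47) and SYVN1 (0.39). The translocation genes were SEC11C (1.09), SEC61G (1.01), SSR1 (0.90), SSR2 (0.70), SEC61A1 (0.63) and SSR4 (0.56). Of these, SSR2, SEC61G, PPIB, PDIA3, P4HB and CRELD2 rose in HPDE and fell in HPNE against residual medium. In HPNE residual medium was itself higher than fresh medium for 22 of 40 tested members and lower for 1 (background 18.7% and 25.2%). Against fresh medium, PPCL-68 vesicles gave 17 higher and 1 lower in HPNE (background 18.7% and 23.8%).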

How the results depend on the processing

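Counts below are members higher or lower at an adjusted p under 0.05. In HPDE, 30 of 34 calls for PPCL-68 vesicles against residual medium, 22 of 24 for PANC-1 vesicles and 37 of 38 between the vesicle kinds held under every alternative. In HPNE 7 of 15, 2 of 13 and 3 of 7 did, and 12 of 23 between residual and fresh medium. The cause of the changes below was not tested, apart from fewer libraries in the fit.

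The 4 HPNE libraries apart were picked from these same data, so calls made without them are not stronger support. Without them, lower counts were 25 (PANC-1 against residual medium), 23 (PPCL-68 against residual medium) and 3 (residual against fresh medium). The shares lower over all genes were 30.8%, 37.3% and 36.2%. PANC-1 against fresh medium gave 22 higher and 3 lower, PPCL-68 against fresh medium 28 and 4, PPCL-68 against PANC-1 17 and 10, and the line difference in the PANC-1 response 20 and 4. Over all genes the shares higher and lower, in that order, were 29.3% and 33.4%, 30.9% and 38.6%, 13.8% and 22.6%, and 25.3% and 21.4%. SEC61B against fresh medium with PANC-1 vesicles became 0.13, EDEM3 and CALR with PPCL-68 vesicles 0.14 and 0.15, and FKBP2 between vesicle kinds -0.15. With only the 6 libraries compared, HPNE counts were 0 higher and 4 lower for PANC-1 against residual medium, 1 lower for PANC-1 against fresh medium and 3 higher between vesicle kinds, and HPDE residual against fresh medium had 5 higher. With no filter, HPNE counts were 5 lower (PPCL-68 against residual medium), 1 higher (PANC-1 against fresh medium) and 2 lower (PPCL-68 against fresh medium), HPDE residual against fresh medium had 1 lower, and the line difference in the PANC-1 response had 2 lower. With size factors, HPNE PANC-1 against fresh medium had 5 higher, HPDE PPCL-68 against residual medium 1 lower and HPDE residual against fresh medium 1 lower. The shares over all genes were 11.6%, 33.7% and 9.68%. With limma-voom, HPNE PANC-1 against fresh medium had 6 higher, HPDE residual against fresh medium 5 higher, HPDE PPCL-68 against residual medium 1 lower and untreated HPDE against HPNE 9 higher. Over all genes these shares were 11.6%, 11.8%, 33.9% and 40%.

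The untreated line difference turned in sign for 5 members with size factors and with limma-voom: SEC61B (-0.28 and -0.29), DERL1 (-0.36 and -0.39), PDIA6 (-0.03 in both), SYVN1 (-0.28 and -0.31) and PDIA3 (-0.20 in both). In a fit with a replicate block, HPNE PPCL-68 against PANC-1 vesicles, where the numbers pair, had 5 higher, and HPDE residual against fresh medium, where they do not, had 1 lower. Apart from the latter, the block moved no count of members by more than 1.5 times.

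Leaving out 1 library at a time gave these ranges of higher and lower counts. In HPDE they were 8 to 9 and 15 to 17 (PANC-1 against residual), 29 to 32 and 2 to 3 (PPCL-68 against residual), 7 to 9 and 13 to 15 (PANC-1 against fresh), 30 to 32 and 3 to 3 (PPCL-68 against fresh), 1 to 5 and 0 to 2 (residual against fresh), and 36 to 37 and 1 to 1 (PPCL-68 against PANC-1). In HPNE, in the same order, they were 0 to 3 and 3 to 16, 5 to 6 and 2 to 16, 1 to 7 and 0 to 1, 14 to 19 and 0 to 1, 11 to 24 and 1 to 2, and 3 to 5 and 0 to 0. The line difference in response gave 4 to 16 and 1 to 2 for PANC-1 vesicles and 25 to 31 and 0 to 1 for PPCL-68 vesicles, and the untreated lines 13 to 17 and 14 to 16.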
